A study of Mus musculus with 22 samples.

Results

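The 34 genes described here encode fibroblast growth factors (FGFs), their receptors and the inhibitors and transcription factors that FGF signalling induces. They were chosen by name from the 28711 genes of the deposited normalised table, out of 55421 gene rows in the deposited count table. The choice took every numbered Fgf gene, Fgfr1 to Fgfr4, the receptor-like gene Fgfrl1, the Sprouty and Spred genes, Dusp6, Etv1, Etv4 and Etv5, and used no measured value. Of the Sprouty genes, Spry1, Spry2 and Spry4 had an entry in the normalised table and Spry3 had none. By role, 15 are ligands, 4 encode intracellular FGF-like proteins, 5 are receptors and 10 are feedback and target genes. Fgf4, Fgf6 and Fgf15 carry matching names but held at most 3 counts in any library and have no entry in the normalised table.

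RNA of whole mandibular first molars was sequenced at postnatal day 11 (P11) and day 5 (P5). Het mice carried 1 Tgfbr2-G357W allele, which replaces a glycine of the type II TGF-beta receptor by tryptophan, beside 1 unmutated allele, and are a model of Loeys-Dietz syndrome type II. WT mice were Tgfbr2-+/+ littermates. There were 5 P11 Het, 5 P11 WT, 6 P5 Het and 6 P5 WT libraries. The labels name no promoter, Cre, further allele or agent. The submitters name 5 Het and 8 WT mice as the source of these 22 libraries, fewer mice than libraries in each genotype. By these numbers some libraries share an animal, but nothing ties a library to an animal. Each p-value thus measures library-to-library spread, and it is too small, and an interval too narrow, where libraries share an animal.

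FGFs are secreted proteins that bind receptor tyrosine kinases together with heparan sulfate and switch on the RAS-ERK cascade. The cascade raises the transcription factors Etv1, Etv4 and Etv5 and also its own inhibitors, the Sprouty and Spred proteins and the ERK phosphatase Dusp6, so these genes are widely used as readouts of the pathway. In the developing tooth, FGFs pass between epithelium and mesenchyme. Fgf4, Fgf9 and Fgf20 are known from the epithelium, and Fgf3 and Fgf10 from the mesenchyme, where they sustain the epithelium that forms ameloblasts. Ameloblasts secrete the enamel matrix at P5 and mature it at P11.

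Library totals ran from 32904047 to 45343814 counts. Tooth markers were present, and the enamel gene Ambn was at 27500 CPM in P11 Het, 20400 in P11 WT, 80300 in P5 Het and 93300 CPM in P5 WT molars on average (CPM, counts divided by library size after TMM scaling, the trimmed mean of M values). The label fields of P5 Het 6 disagree on its age (P5 in the title, P11 in the tissue field), and it was kept at P5. Oral keratinocyte markers (mean log2 CPM of 11 genes) reached 5.51 in P11 Het 2, 6.56 in P11 WT 4 and 5.62 in P11 WT 5, against at most 3.69 in other P11 libraries. They stood at 0.94 in P5 Het 4, and muscle markers stood at 0.88 in P5 Het 5. These 5 libraries, named the marker-rich libraries here, were left out together in 1 alternative fit. Secretory ameloblast markers (7 genes) ranged from 7.01 to 8.50 in P11 Het, 6.75 to 7.72 in P11 WT, 10.65 to 10.87 in P5 Het and 10.74 to 10.94 in P5 WT libraries. Maturation ameloblast markers (8 genes) ranged from 6.73 to 7.20 in P11 Het, 6.87 to 7.42 in P11 WT, 1.96 to 3.05 in P5 Het and 2.99 to 3.83 in P5 WT libraries. Dental mesenchyme and pulp markers (8 genes) ranged from 7.85 to 8.11 in P11 Het, 8.03 to 8.20 in P11 WT, 7.05 to 7.19 in P5 Het and 7.02 to 7.28 in P5 WT libraries. Markers of these cells thus stood at different levels at the 2 ages, and their part in the age differences below was not tested. Between genotypes of 1 age the ranges overlapped. Even so, maturation markers reached lower at P5, and secretory markers higher at P11, in Het than in WT libraries. Within library-name prefixes, numbers that the labels do not explain, these values were apart. With prefix 1, P11 secretory markers were 8.18 to 8.50 in Het and 7.53 to 7.72 in WT. With prefix 2 they were 7.01 to 7.03 and 6.75 to 6.78. With prefix 3, P5 maturation markers were 2.89 to 3.05 in Het and 3.46 to 3.83 in WT. With prefix 4 they were 1.96 to 2.76 and 2.99 to 3.37. P5 secretory markers overlapped within prefix 4 and P11 maturation markers within prefix 1. The part of these markers in the genotype differences below was not tested either. In whole molars, fewer cells of a type and less RNA per cell cannot be told apart.

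Levels of different genes were set side by side per kilobase of exon, with the union of all annotated exons of a gene as its length. This union can be longer than the transcripts expressed, and the order of genes depends on it. On this scale the receptors Fgfr1 and Fgfr2 were the most abundant members in every group. Fgfr1 stood at 43.0 ± 7.91 CPM per kb in P11 Het, 44.5 ± 6.78 in P11 WT, 56.9 ± 5.71 in P5 Het and 52.4 ± 3.77 in P5 WT molars (SD, n = 5 at P11 and 6 at P5). Fgfr2 stood at 39.9 ± 3.76 CPM per kb in P11 Het, 38.1 ± 2.79 in P11 WT, 34.4 ± 4.44 in P5 Het and 32.2 ± 4.32 in P5 WT molars. The ranges of these 2 receptors overlapped at P11 and were apart at P5. The third place was held by the inhibitor Spry2, at 19.4 ± 2.30 CPM per kb in P11 Het, 20.1 ± 0.994 in P11 WT, 25.1 ± 3.79 in P5 Het and 24.7 ± 3.46 in P5 WT molars. Spred1, Spred3, Fgfr3, Fgf1 and Dusp6 followed, between 5.58 and 10.2 CPM per kb in group means, and the ranges of neighbours in this order overlapped in each group, except Fgfr3 above Fgf1 in P11 Het and Fgf1 above Spred1 in P5 WT molars.

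Fgf1, a ligand that can bind all FGF receptors and lacks a classical secretion signal, was the most abundant ligand by this scale. It stood at 7.32 ± 0.568 CPM per kb in P11 Het, 7.27 ± 0.776 in P11 WT, 8.10 ± 0.698 in P5 Het and 8.26 ± 0.543 in P5 WT molars, between 60.6% and 63.2% of the summed ligand level in group means. The other 14 ligands together came to 4.29 ± 0.275 CPM per kb in P11 Het, 4.23 ± 0.491 in P11 WT, 5.27 ± 0.467 in P5 Het and 5.07 ± 0.463 in P5 WT molars. The next ligand in any group was Fgf3 in P5 WT molars, at 1.35 ± 0.363 CPM per kb.

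A member was tested where its counts passed a filter on low values over all 22 libraries, and 30 of the 34 did. Left out were Fgf8, a ligand of the early tooth epithelium, Fgf18, Fgf20 and Fgf23, the phosphate-regulating hormone of bone. Their highest value in any library was 0.299 CPM for Fgf8, 0.541 for Fgf18, 0.144 for Fgf20 and 0.162 CPM for Fgf23. Fgf20 had no count in 14 of the 22 libraries and 24 counts in all, where 3 counts correspond to between 0.0654 and 0.0893 CPM. Fgf18 had 47 counts summed over P11 Het, 57 over P11 WT, 13 over P5 Het and 23 over P5 WT libraries. These 4 genes were not tested.

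The comparison of P11 with P5 covers the passage from enamel secretion to enamel maturation. P11 libraries carried the library-name prefixes 1 and 2 and P5 libraries the prefixes 3, 4 and 5. Age and prefix therefore cannot be told apart in any age difference below. Of the 30 members tested, 7 rose and 9 fell in Het molars, and 13 rose and 10 fell in WT molars, by edgeR's quasi-likelihood test (adjusted p under 0.05, Benjamini-Hochberg, with 21510 genes tested). Over all genes 47.8% were called in Het (24.4% higher, 23.4% lower) and 49.4% in WT molars (24.8% higher, 24.7% lower). The called share of the members was 53.3% in Het and 76.7% in WT molars. The groups did not overlap for 12 members in Het and 13 in WT molars, where 30.3% (Het) and 32.0% (WT) of all genes did not overlap. The median size of the log2 fold change was 0.49 over the members and 0.37 over all genes in Het, and 0.52 over the members and 0.39 over all genes in WT molars. No member was called in opposite directions: 7 rose and 8 fell in both genotypes, and 6 were called in neither. The genotype by age interaction, which tests the difference between the 2 age effects, was called by edgeR for none of the members and for 0.0139% of all genes. DESeq2 called it for no member either, and for 0.315% of the 17750 genes to which it gave an adjusted p. An unadjusted p under 0.05 for the interaction was found for 1 member and for 10.3% of all genes.

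**Figure D1:**
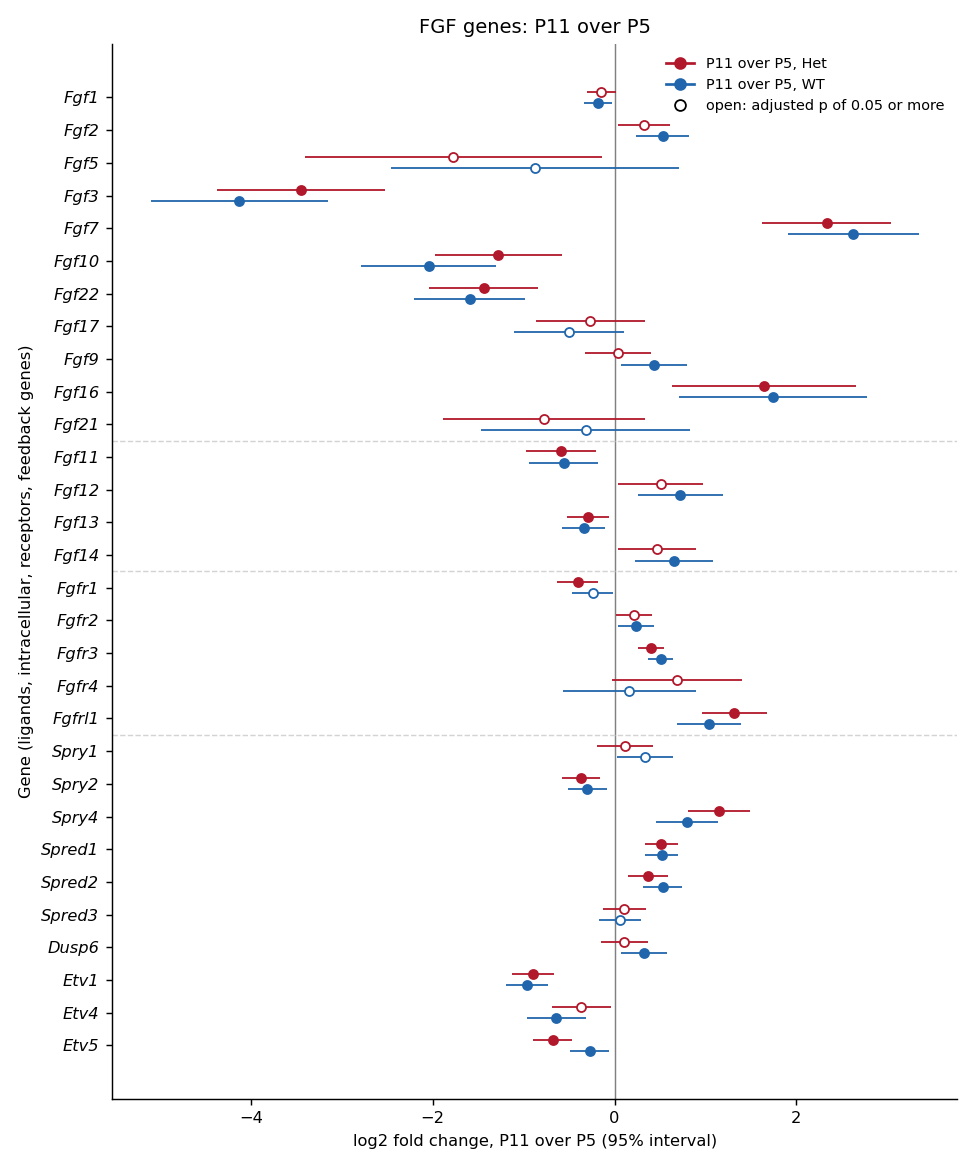
Log2 fold change of P11 over P5 (horizontal axis, with 95% intervals) for the 30 tested genes, in Het (red) and WT molars (blue), with filled points for adjusted p under 0.05 and dashed lines between ligands, intracellular FGF-like genes, receptors and feedback genes. Fgf3 lies farthest to the left in both genotypes and Fgf7 farthest to the right.

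The 4 ligands of the Fgf7 subfamily, which act on the epithelial splice forms of Fgfr1 and Fgfr2, held the largest fall with age, that of Fgf3, and the largest rise, that of Fgf7. Fgf3 (ENSMUSG00000031074; GRCm38, chromosome 7, 144838083 to 144844436, plus strand), a mesenchymal signal in tooth buds, nearly vanished by P11. P11 Het libraries held 0.209, 0.676, 0.168, 0.118 and 0.0464 CPM and P11 WT libraries 0.335, 0.153, 0.221, 0 and 0.178 CPM of Fgf3. At P5 its lowest, median and highest values were 2.20, 2.62 and 3.25 CPM in Het and 2.28, 3.01 and 4.50 CPM in WT libraries. Every P11 library lay below every P5 library, the library with conflicting age labels included, which held 3.19 CPM. The log2 fold change was -3.45 ± 0.45 in Het and -4.13 ± 0.47 in WT molars (SE; adjusted p = 7.43e-07 and 9.79e-08). The single P11 library without an Fgf3 count, WT 4, had a floor of 0.0720 CPM, the value of 3 counts.

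Fgf10 (ENSMUSG00000021732; chromosome 13, 118669791 to 118792115, plus strand), known for maintaining epithelial stem cells of the mouse incisor, fell too. Its values were 1.56, 1.24, 0.216, 0.828 and 0.834 CPM in P11 Het and 0.593, 0.713, 0.541, 0.624 and 0.127 CPM in P11 WT libraries. At P5 the lowest, median and highest were 1.59, 2.03 and 3.31 CPM in Het and 1.73, 2.15 and 2.64 CPM in WT libraries. All P11 libraries lay below all P5 libraries within each genotype, though in Het molars the gap was narrow (1.56 against 1.59 CPM). P11 over P5 gave a log2 fold change of -1.28 ± 0.34 in Het and -2.04 ± 0.36 in WT molars (SE; adjusted p = 0.00309 and 4.6e-05). The interaction was 0.76 ± 0.48 (SE; adjusted p = 0.603), so the age effects were not shown to differ.

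Fgf22 (ENSMUSG00000020327; chromosome 10, 79755076 to 79758596, plus strand), known as an organiser of synapses in the brain, was the third member of the subfamily to fall. It was at 0.628, 1.35, 0.817, 0.663 and 0.719 CPM in P11 Het and at 0.438, 0.433, 0.886, 1.08 and 0.660 CPM in P11 WT libraries. The lowest, median and highest P5 values were 1.73, 2.00 and 3.35 CPM in Het and 1.21, 2.03 and 3.58 CPM in WT libraries. The ages did not overlap within either genotype, and the log2 fold change was -1.44 ± 0.29 in Het and -1.60 ± 0.30 in WT molars (SE; adjusted p = 0.000241 and 8.85e-05). Libraries carry no strand information, and exons of Fgf22 overlap those of Rnf126, a ubiquitin ligase gene on the opposite strand with a mean of 18.3 CPM. The log2 fold change of Rnf126 was -0.75 in Het and -0.31 in WT molars (adjusted p = 0.000811 and 0.139), and its part in the Fgf22 values was not tested.

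Fgf7 (ENSMUSG00000027208; chromosome 2, 126034658 to 126091185, plus strand), keratinocyte growth factor, a mesenchymal mitogen for epithelia, went the other way. Its values were 2.42, 2.42, 3.12, 4.14 and 3.34 CPM in P11 Het and 3.17, 3.13, 2.95, 3.77 and 3.05 CPM in P11 WT libraries. P5 libraries had their lowest, median and highest at 0.308, 0.644 and 1.01 CPM in Het and 0.108, 0.494 and 1.07 CPM in WT libraries. All P11 libraries lay above all P5 libraries, and P5 Het 6 was the lowest of the P5 Het libraries. With age the log2 fold change was 2.34 ± 0.34 in Het and 2.63 ± 0.35 in WT molars (SE; adjusted p = 4.92e-06 and 9.99e-07). The age calls of these 4 ligands held in all 29 alternative fits in both genotypes, none of which could separate age from library-name prefix.

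Fgf7 and Fgf10 encode ligands of the same receptor form and changed in opposite directions, so the 250 bases before their RefSeq starts are shown (GRCm38.p6, plus strand, 5′ to 3′). The windows are chr2:126034408-126034657 for Fgf7 and chr13:118714449-118714698 for Fgf10, and neither overlaps an exon of the GENCODE M21 annotation.
Fgf7: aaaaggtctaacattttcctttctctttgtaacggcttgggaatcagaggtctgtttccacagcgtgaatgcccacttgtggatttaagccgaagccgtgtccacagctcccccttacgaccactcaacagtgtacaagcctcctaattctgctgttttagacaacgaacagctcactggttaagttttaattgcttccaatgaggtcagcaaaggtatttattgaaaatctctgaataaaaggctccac
Fgf10: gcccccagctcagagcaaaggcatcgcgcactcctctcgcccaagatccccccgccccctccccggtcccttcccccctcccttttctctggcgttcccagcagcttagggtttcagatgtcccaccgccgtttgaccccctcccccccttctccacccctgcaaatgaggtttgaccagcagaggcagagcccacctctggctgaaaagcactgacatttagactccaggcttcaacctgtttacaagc
These windows were searched for CCGGAA, the core bound by ETS factors such as Etv1, Etv4 and Etv5, on both strands (TTCCGG on the strand shown). Neither holds it, which says only that these letters are not in this stretch. The Fgf7 window has 43.6% G and C with 6 CpG, and the Fgf10 window 61.2% with 8 CpG, where the median over 32851 RefSeq windows was 52.4% and 6 CpG. Of the members, 26 matched a RefSeq promoter entry, giving 35 windows. The motif was in 4 of these windows (11.4%) and in 3952 of the 32851.

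**Figure D2:**
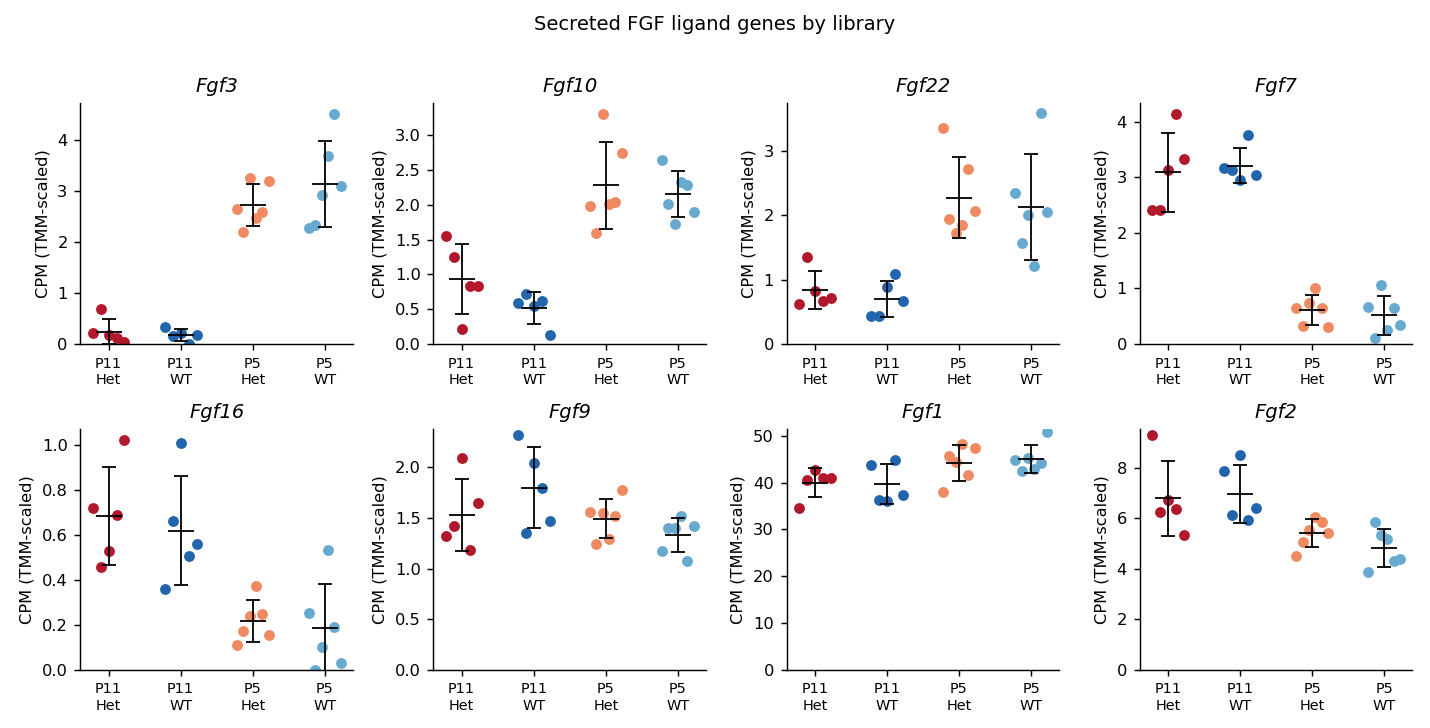
Level of 8 secreted FGF ligand genes in each library (vertical axis, TMM-scaled CPM, 1 panel a gene, each with its own scale), by group from left to right P11 Het, P11 WT, P5 Het and P5 WT, with the mean and SD as black bars that end at 0 where the SD is larger than the mean. Within each genotype Fgf3, Fgf10 and Fgf22 sit lower and Fgf7 higher in every P11 library than in any P5 library.

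Among the Fgf9 subfamily, Fgf16, a ligand known from the heart, rose at low levels. It ranged from 0.458 to 1.02 CPM in P11 Het and from 0.361 to 1.01 CPM in P11 WT, against 0.112 to 0.374 CPM in P5 Het and 0 to 0.534 CPM in P5 WT libraries. The log2 fold change was 1.64 ± 0.49 in Het and 1.74 ± 0.50 in WT molars (SE; adjusted p = 0.0077 and 0.00575), and the WT groups overlapped. Fgf9, an epithelial tooth signal, was at 1.32, 1.42, 2.09, 1.18 and 1.65 CPM in P11 Het and at 2.32, 1.35, 2.04, 1.80 and 1.47 CPM in P11 WT libraries. At P5 its lowest, median and highest values were 1.246, 1.534 and 1.773 CPM in Het and 1.08, 1.40 and 1.52 CPM in WT libraries. It rose in WT molars, by 0.43 ± 0.18 on the log2 scale (SE; adjusted p = 0.0437), and had 0.04 ± 0.18 in Het molars (adjusted p = 0.874), with the groups overlapping in both. The interaction was -0.39 ± 0.25 (SE; adjusted p = 0.6). The WT call of Fgf9 was lost without P11 WT 1, 3 or 4 or P5 WT 1 or 5 (adjusted p = 0.0653 to 0.148) and without the 5 marker-rich libraries (0.0619). It was also lost without the filter on low counts (0.118) and in a fit of the P11 WT and P5 WT libraries alone (0.0679).

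In the Fgf1 subfamily, Fgf2 rose in WT molars, a call held in all 29 alternatives, and Fgf1 changed little. Fgf2, a heparin-bound ligand stored in matrix, ranged from 5.33 to 9.27 CPM in P11 Het and from 5.93 to 8.49 CPM in P11 WT, against 4.52 to 6.04 CPM in P5 Het and 3.87 to 5.86 CPM in P5 WT libraries. Its log2 fold change was 0.33 ± 0.14 in Het (SE; adjusted p = 0.0549) and 0.53 ± 0.14 in WT molars (adjusted p = 0.00282), and the P11 and P5 libraries were apart in WT. Exons of Fgf2 overlap the opposite-strand gene Nudt6, at a mean of 1.1 CPM, whose log2 fold change was 0.74 in Het and 0.32 in WT molars (adjusted p = 0.00359 and 0.207), and its part was not tested. Fgf1 ranged from 34.7 to 42.8 CPM in P11 Het and from 36.2 to 44.8 CPM in P11 WT, against 38.1 to 48.2 CPM in P5 Het and 42.6 to 50.8 CPM in P5 WT libraries. Its log2 fold change was -0.14 ± 0.08 in Het (SE; adjusted p = 0.119) and -0.18 ± 0.08 in WT molars (adjusted p = 0.0469). The WT call of Fgf1 held in 7 of 29 alternatives. It was lost without P11 Het 2, 4 or 5, P11 WT 2, 3 or 5, P5 Het 1, 2, 3 or 5 or any single P5 WT library (adjusted p = 0.0508 to 0.183), and without the 5 marker-rich libraries (0.0593). Fgf5, Fgf17 and Fgf21, the endocrine ligand best known from liver, were not called in either genotype, and their highest value in any library was 0.722, 1.102 and 0.608 CPM.

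The 4 intracellular FGF-like genes, whose proteins bind voltage-gated sodium channels and do not act as classical receptor ligands, split into pairs. Fgf11 and Fgf13 fell in both genotypes. On the log2 scale Fgf11 had -0.59 ± 0.19 in Het and -0.56 ± 0.19 in WT molars (SE; adjusted p = 0.0108 and 0.0147). Fgf13 had -0.29 ± 0.11 in Het and -0.34 ± 0.11 in WT molars (SE; adjusted p = 0.0333 and 0.0138). Fgf12 and Fgf14 rose in WT molars, by 0.72 ± 0.23 and 0.66 ± 0.21 on the log2 scale (SE; adjusted p = 0.0103 and 0.0107), and had 0.51 ± 0.23 and 0.47 ± 0.21 in Het molars (adjusted p = 0.0698 and 0.0681). Without the 5 marker-rich libraries neither Fgf11 (adjusted p = 0.111 in Het, 0.133 in WT) nor Fgf13 (0.12 and 0.204) was called. Fgf11 lost its WT call without P11 WT 4 (0.0509). Fgf13 lost its WT call without P11 WT 4 or P5 WT 6 (0.053 to 0.0531) and its Het call without P11 Het 2, 4 or 5 or P5 Het 1, 3, 4 or 5 (0.0508 to 0.0815). The Het call of Fgf13 was also lost without the filter on low counts (0.0704).

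Of the 5 receptors, Fgfr3 and Fgfrl1 rose in both genotypes, while Fgfr1 fell in Het and Fgfr2 rose in WT molars, both by small amounts. Fgfrl1 (ENSMUSG00000008090; chromosome 5, 108692382 to 108706924, plus strand), a receptor that binds FGFs but lacks the intracellular kinase domain, was at 8.76, 9.53, 8.65, 8.33 and 7.74 CPM in P11 Het libraries. P11 WT libraries held 10.3, 9.14, 11.0, 8.11 and 5.20 CPM of Fgfrl1. At P5 its lowest, median and highest values were 2.17, 3.33 and 4.74 CPM in Het and 3.45, 4.42 and 4.75 CPM in WT libraries. All P11 libraries lay above all P5 libraries, the nearest being P11 WT 5. P11 over P5 gave a log2 fold change of 1.32 ± 0.17 in Het and 1.04 ± 0.17 in WT molars (SE; adjusted p = 8.13e-07 and 1.84e-05), held in all 29 alternatives.

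Fgfrl1 was the member with the largest rise among receptors and its RefSeq promoter window holds the ETS core, shown in capitals, 48 bases before the start (GRCm38.p6, chr5:108693979-108694228, plus strand, 5′ to 3′, free of GENCODE M21 exons).
Fgfrl1: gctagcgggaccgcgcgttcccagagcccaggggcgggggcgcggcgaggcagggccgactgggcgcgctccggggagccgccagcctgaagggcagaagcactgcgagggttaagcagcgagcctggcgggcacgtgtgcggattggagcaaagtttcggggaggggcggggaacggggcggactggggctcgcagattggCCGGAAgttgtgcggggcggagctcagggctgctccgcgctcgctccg
This window has 73.6% G and C with 30 CpG. A match describes the letters and is no evidence of binding.

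Fgfr3 (chromosome 5, 33721674 to 33737068), a receptor known from cartilage and inner ear, was at 69.5, 66.0, 63.0, 62.8 and 59.9 CPM in P11 Het and at 69.7, 71.1, 76.2, 66.7 and 60.4 CPM in P11 WT libraries. At P5 the lowest, median and highest were 43.7, 48.7 and 54.2 CPM in Het and 44.4, 48.0 and 52.3 CPM in WT libraries. The ages were apart in both genotypes, with a log2 fold change of 0.40 ± 0.07 in Het and 0.51 ± 0.07 in WT molars (SE; adjusted p = 2.97e-05 and 1.15e-06).

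Fgfr1 (chromosome 8, 25513654 to 25575718), which serves mesenchyme and, in 1 splice form, epithelium, was at 481, 367, 533, 356 and 387 CPM in P11 Het and at 480, 456, 510, 338 and 413 CPM in P11 WT libraries. The lowest, median and highest P5 values were 523, 544 and 674 CPM in Het and 475, 523 and 561 CPM in WT libraries. The ages overlapped in both genotypes. It fell in Het molars, by 0.40 ± 0.11 on the log2 scale (SE; adjusted p = 0.00385), and had -0.24 ± 0.11 in WT molars (adjusted p = 0.0749). The interaction was -0.16 ± 0.15 (SE; adjusted p = 0.741).

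Fgfr2, whose epithelial splice form receives Fgf3, Fgf7 and Fgf10, was at 388, 362, 425, 420 and 464 CPM in P11 Het and at 417, 394, 388, 349 and 421 CPM in P11 WT libraries. P5 libraries had their lowest, median and highest at 296, 350 and 436 CPM in Het and 287, 313 and 397 CPM in WT libraries. The ages overlapped, and the log2 fold change was 0.22 ± 0.10 in Het (SE; adjusted p = 0.0671) and 0.24 ± 0.10 in WT molars (adjusted p = 0.0398). By library-name prefix, P11 WT libraries averaged 399.5 (prefix 1) and 384.7 CPM (prefix 2) of Fgfr2. P5 WT libraries averaged 388.8 with prefix 3, near the P11 means, and 305.1 CPM with prefix 4. These means rest on 2 to 4 libraries each. The WT call of Fgfr2 was lost without P11 WT 1, 2, 3 or 5 or P5 WT 4 or 6 (adjusted p = 0.0514 to 0.0904), without the 5 marker-rich libraries (0.0514) and without the filter on low counts (0.0578). Gene counts do not separate the epithelial and mesenchymal splice forms. Exons of Fgfr2 overlap those of Ctbp2, a corepressor gene on the same strand, at a mean of 29.6 CPM. Per kilobase, the ratio of Fgfr1 to Fgfr2 was 1.08 ± 0.213 in P11 Het, 1.17 ± 0.150 in P11 WT, 1.66 ± 0.111 in P5 Het and 1.64 ± 0.186 in P5 WT molars (SD, n = 5 at P11 and 6 at P5), and its ranges at P11 (0.871 to 1.31 in Het, 1.01 to 1.37 in WT) lay below those at P5 (1.55 to 1.85 in Het, 1.39 to 1.86 in WT). Fgfr4 was not called and reached at most 1.54 CPM in a library.

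**Figure D3:**
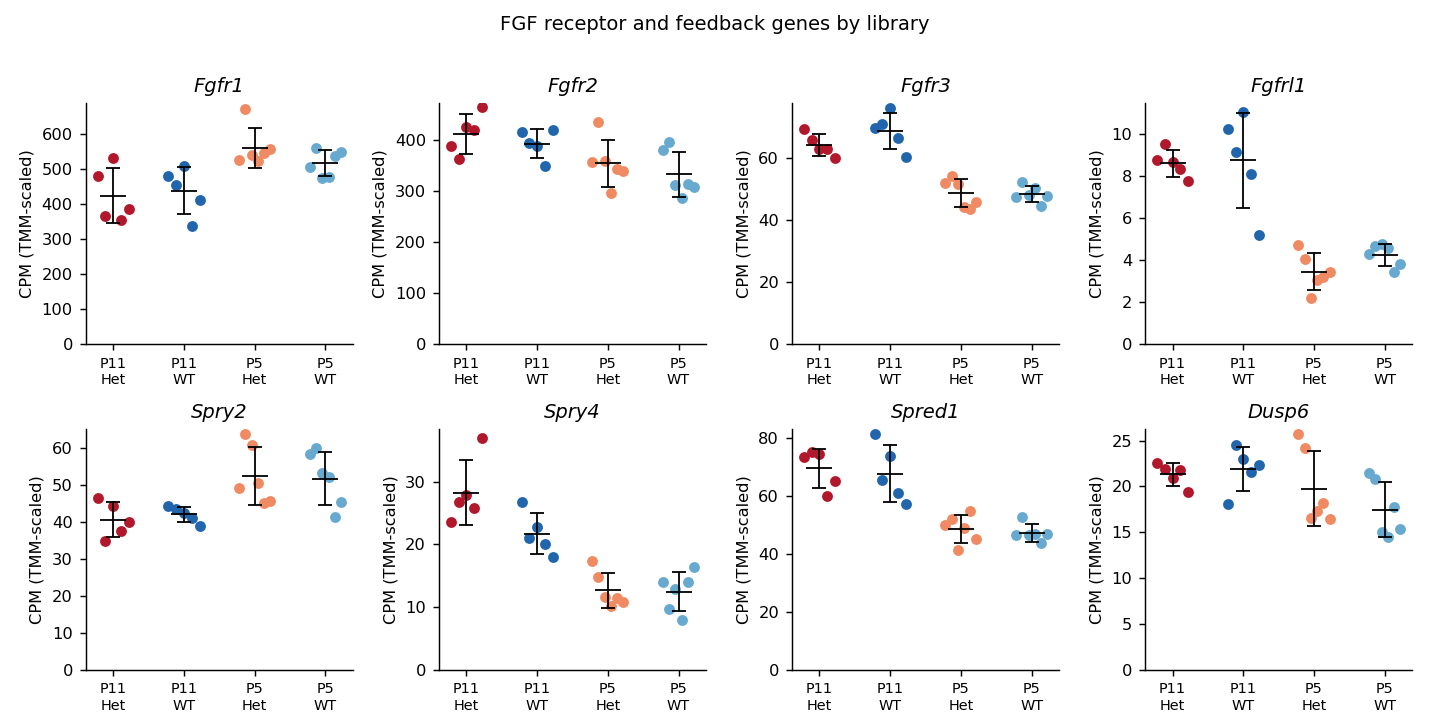
Level of 4 receptor genes (upper row) and 4 feedback genes (lower row) in each library (vertical axis, TMM-scaled CPM, 1 panel a gene, each with its own scale), by group from left to right P11 Het, P11 WT, P5 Het and P5 WT, with the mean and SD as black bars. Fgfr3, Fgfrl1, Spry4 and Spred1 sit higher in every P11 library than in any P5 library, while Fgfr1, Fgfr2, Spry2 and Dusp6 overlap between ages.

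The 10 feedback and target genes did not move as 1 block: the inhibitors Spry4, Spred1 and Spred2 rose and the transcription factors Etv1 and Etv5 fell in both genotypes. Spry4, a Sprouty inhibitor of the RAS-ERK cascade, was at 23.6, 26.9, 27.9, 25.8 and 37.0 CPM in P11 Het and at 26.8, 21.1, 22.8, 20.04 and 17.99 CPM in P11 WT libraries. At P5 the lowest, median and highest were 10.2, 11.5 and 17.4 CPM in Het and 8.01, 13.4 and 16.4 CPM in WT libraries. All P11 libraries lay above all P5 libraries. With age the log2 fold change was 1.15 ± 0.16 in Het and 0.80 ± 0.16 in WT molars (SE; adjusted p = 3.1e-06 and 0.000269), and the interaction was 0.35 ± 0.23 (SE; adjusted p = 0.624).

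Spry2, the most abundant Sprouty, moved the other way from Spry4. It was at 46.5, 34.7, 44.1, 37.5 and 39.9 CPM in P11 Het and at 44.2, 43.4, 42.4, 41.0 and 38.9 CPM in P11 WT libraries. The lowest, median and highest P5 values were 44.9, 49.7 and 63.7 CPM in Het and 41.1, 52.7 and 59.7 CPM in WT libraries. The ages overlapped, and the log2 fold change was -0.37 ± 0.10 in Het and -0.30 ± 0.10 in WT molars (SE; adjusted p = 0.00483 and 0.0192). The WT call of Spry2 was lost without P5 WT 1 or 2 (adjusted p = 0.0714 to 0.0776). Without the 5 marker-rich libraries its adjusted p was 0.0987. Spry1 was not called in either genotype (log2 fold change 0.11 ± 0.15 in Het and 0.34 ± 0.15 in WT molars, SE; adjusted p = 0.566 and 0.0639).

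Spred1 and Spred2, membrane-bound inhibitors that recruit neurofibromin to RAS, rose together. Spred1 was at 73.2, 74.9, 74.3, 59.9 and 65.0 CPM in P11 Het and at 81.1, 65.3, 73.7, 60.9 and 57.1 CPM in P11 WT libraries. Its lowest, median and highest values at P5 were 41.2, 49.3 and 54.6 CPM in Het and 43.6, 46.7 and 52.7 CPM in WT libraries. The ages were apart in both genotypes, with a log2 fold change of 0.52 ± 0.09 in each (SE; adjusted p = 2.84e-05 in Het and 2.44e-05 in WT). Spred2 was at 17.6, 12.6, 13.4, 12.8 and 16.2 CPM in P11 Het and at 16.2, 17.1, 17.98, 12.9 and 13.2 CPM in P11 WT libraries. At P5 the lowest, median and highest of Spred2 were 10.4, 10.98 and 12.5 CPM in Het and 9.64, 10.7 and 12.3 CPM in WT libraries. Its log2 fold change was 0.37 ± 0.10 in Het and 0.53 ± 0.10 in WT molars (SE; adjusted p = 0.00551 and 0.000182), with the ages apart. Spred3 was not called in either genotype (adjusted p = 0.451 in Het and 0.696 in WT).

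Dusp6, the phosphatase that switches off ERK in the cytoplasm, was at 22.6, 21.9, 20.9, 21.7 and 19.4 CPM in P11 Het and at 18.1, 24.5, 22.9, 21.6 and 22.3 CPM in P11 WT libraries. P5 libraries had their lowest, median and highest at 16.5, 17.8 and 25.7 CPM in Het and 14.5, 16.6 and 21.4 CPM in WT libraries. The ages overlapped in both genotypes. The log2 fold change was 0.11 ± 0.12 in Het (SE; adjusted p = 0.497) and 0.33 ± 0.12 in WT molars (adjusted p = 0.0328). By library-name prefix, P11 WT libraries averaged 21.84 (prefix 1) and 21.96 CPM (prefix 2) of Dusp6. P5 WT libraries averaged 21.11 with prefix 3, near the P11 means, and 15.66 CPM with prefix 4. The WT call of Dusp6 was lost without P11 WT 2, 3 or 5 or P5 WT 3, 4 or 6 (adjusted p = 0.0504 to 0.0868) and without the 5 marker-rich libraries (0.102).

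Etv1 (ENSMUSG00000004151; chromosome 12, 38779380 to 38870484, plus strand), an ETS transcription factor induced by FGF signalling, gave the second smallest p-value by age among the members. P11 Het libraries held 4.70, 3.75, 4.49, 4.80 and 4.03 CPM and P11 WT libraries 3.53, 3.79, 2.90, 2.81 and 3.43 CPM of Etv1. At P5 the lowest, median and highest were 6.52, 8.47 and 9.12 CPM in Het and 5.77, 6.46 and 7.10 CPM in WT libraries. All P11 libraries lay below all P5 libraries. P11 over P5 gave a log2 fold change of -0.90 ± 0.11 in Het and -0.96 ± 0.11 in WT molars (SE; adjusted p = 3.66e-07 and 1.43e-07).

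Etv5 (ENSMUSG00000013089; chromosome 16, 22381309 to 22439719, minus strand), its close relative, was at 9.02, 9.32, 9.42, 10.01 and 11.1 CPM in P11 Het and at 9.23, 10.7, 9.54, 8.76 and 10.2 CPM in P11 WT libraries. The lowest, median and highest P5 values were 13.6, 15.04 and 18.98 CPM in Het and 8.99, 11.6 and 13.8 CPM in WT libraries. The ages were apart in Het and overlapped in WT molars. With age the log2 fold change was -0.68 ± 0.10 in Het and -0.27 ± 0.10 in WT molars (SE; adjusted p = 8.27e-06 and 0.0334). The WT call of Etv5 was lost without P11 WT 1, 3 or 4, P5 Het 1 or P5 WT 2, 4, 5 or 6 (adjusted p = 0.0523 to 0.125) and without the 5 marker-rich libraries (0.123). It was also lost without the filter on low counts (0.0726) and in a fit of the P11 WT and P5 WT libraries alone (0.06). In all, this call held in 17 of 29 alternatives. The interaction for Etv5 was -0.41 ± 0.15 (SE; unadjusted p = 0.0102, adjusted p = 0.415).

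Etv4, the third ETS factor of the family, was at 5.86, 3.88, 5.14, 4.12 and 3.36 CPM in P11 Het and at 3.79, 3.79, 3.91, 3.46 and 3.60 CPM in P11 WT libraries. At P5 its lowest, median and highest values were 4.37, 5.77 and 6.70 CPM in Het and 4.54, 5.26 and 8.32 CPM in WT libraries. The ages were apart in WT molars and overlapped in Het. The log2 fold change was -0.36 ± 0.16 in Het (SE; adjusted p = 0.0591) and -0.64 ± 0.16 in WT molars (adjusted p = 0.00166).

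Each comparison of Het with WT molars asks whether the mutated TGF-beta receptor alters the FGF genes. At P11 none of the 30 members was called by edgeR, which called 0.0279% of all genes. DESeq2 called no member either, and 0.563% of the 19001 genes to which it gave an adjusted p. By edgeR 3 members had an unadjusted p under 0.05 (9.85% of all genes did). At P5 edgeR called none, where 0.260% of all genes were called, and 2 had an unadjusted p under 0.05 (6.22% of all genes did). DESeq2 called 1 member at P5, Etv5, and 0.700% of the 19001 genes to which it gave an adjusted p. No member had groups without overlap at P11 or at P5, where 1.36% and 0.851% of all genes did. The median log2 fold change was 0.0126 over the members and -0.0076 over all genes at P11, and 0.0764 over the members and -0.00419 over all genes at P5.

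**Figure D4:**
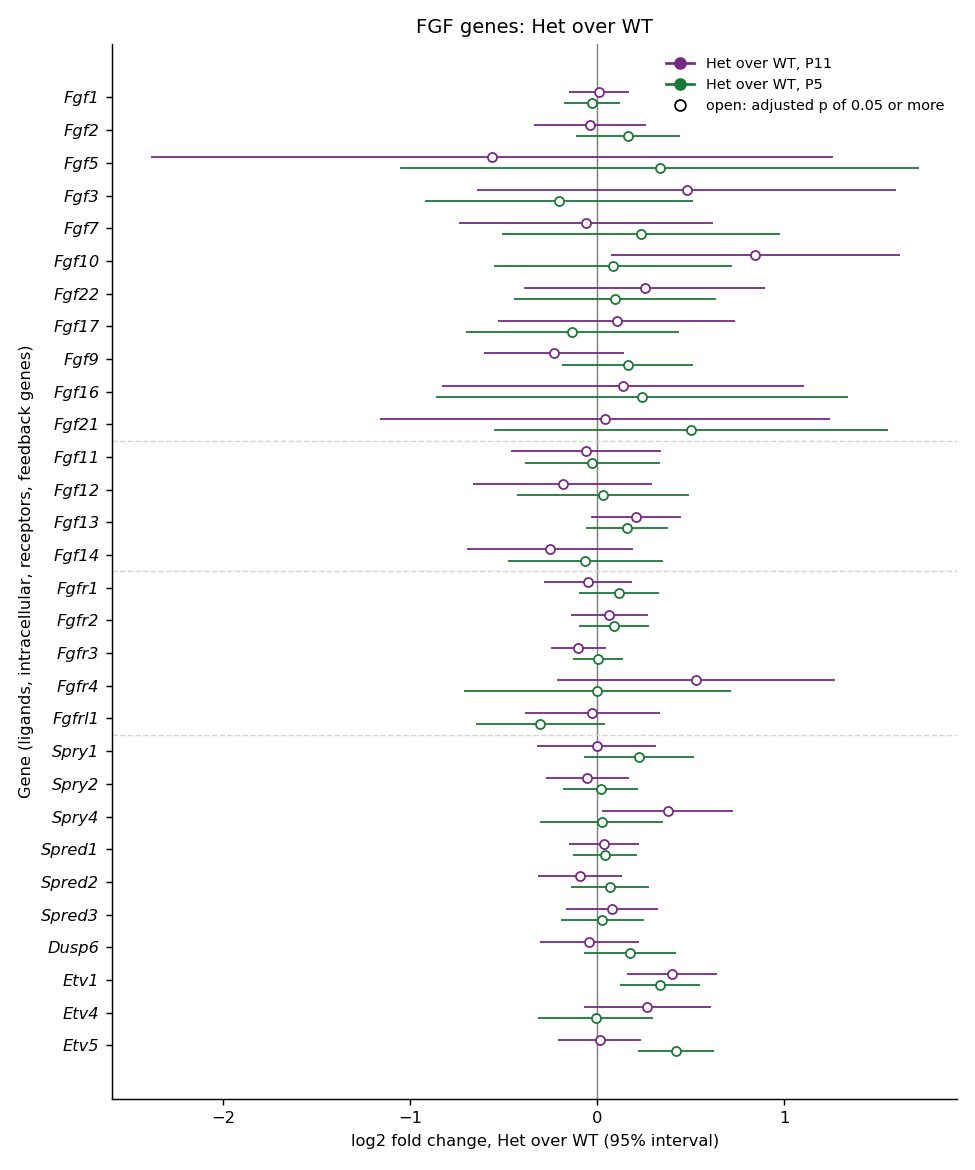
Log2 fold change of Het over WT (horizontal axis, with 95% intervals) for the 30 tested genes at P11 (purple) and at P5 (green), all with open points because no adjusted p was under 0.05, and dashed lines between ligands, intracellular FGF-like genes, receptors and feedback genes. Etv1 has intervals above 0 at both ages, Fgf10 and Spry4 at P11 and Etv5 at P5; Fgf5 has the widest interval, at low counts.

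The intervals of the genotype effect were narrow for abundant members and wide for rare ones. For the receptor Fgfr1 the 95% interval of the log2 fold change was -0.28 to 0.19 at P11 and -0.10 to 0.33 at P5, and for Fgfr2 it was -0.14 to 0.27 at P11 and -0.10 to 0.28 at P5. For Fgfr3 it was -0.25 to 0.05 at P11 and -0.13 to 0.14 at P5. The ligand Fgf1 had -0.15 to 0.17 at P11 and -0.18 to 0.12 at P5. Fgf3 had -0.64 to 1.60 at P11 and -0.92 to 0.51 at P5, and Fgf7 had -0.74 to 0.62 at P11 and -0.51 to 0.98 at P5, the wider intervals of genes with few counts. The inhibitors Spry2, Spred1, Spred2, Spred3 and Dusp6 had log2 fold changes between -0.09 and 0.18 at both ages, while Spry1 had 0.22 at P5 and Spry4 had 0.38 at P11, neither of them called.

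Etv1 was the single member called by genotype, in the mean effect over both ages, where 0.172% of all genes were called (0.0651% higher). At P11 the 5 Het libraries averaged 4.36 ± 0.448 CPM and the 5 WT libraries 3.29 ± 0.422 CPM (SD), and the values were apart except that Het 2 (3.75 CPM) lay below WT 2 (3.79 CPM). At P5 the 6 Het libraries averaged 8.11 ± 0.954 CPM and the 6 WT libraries 6.42 ± 0.563 CPM (SD), and Het 3 (6.52 CPM) lay among the WT values, with the other 5 Het libraries above all WT libraries. Het over WT, the log2 fold change was 0.40 ± 0.12 at P11 and 0.34 ± 0.10 at P5 (SE; adjusted p = 0.272 and 0.331), and 0.37 ± 0.08 over both ages (SE; adjusted p = 0.0485). Within library-name prefixes, numbers that the labels do not explain, Het averaged 4.31 and WT 3.41 CPM with prefix 1 at P11, and Het 4.42 and WT 3.12 CPM with prefix 2. At P5 Het averaged 8.04 and WT 6.89 CPM with prefix 3, and Het 7.43 and WT 6.18 CPM with prefix 4. Prefix 5 held 2 P5 Het libraries, at a mean of 8.86 CPM, and no WT library, so prefix and genotype cannot be told apart there. These means rest on 2 to 4 libraries each. The effect over both ages kept a size of 0.33 to 0.40 on the log2 scale in all 29 alternatives but was called in 4. It lost its call without any single library other than P11 Het 2, P11 WT 2 or P5 Het 3 (adjusted p = 0.0516 to 0.088), and without the 5 marker-rich libraries (0.272).

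Etv5 had the smallest unadjusted p of the members at P5. Het libraries averaged 15.7 ± 1.91 CPM and WT libraries 11.7 ± 1.75 CPM (SD, n = 6 each), and the lowest Het value (13.6 CPM) lay below the highest WT value (13.8 CPM). Its log2 fold change was 0.42 ± 0.10 (SE; unadjusted p = 0.00026, adjusted p = 0.0767), and it was called by DESeq2 (adjusted p = 0.00867) and by edgeR without P5 WT 6 (0.0413). In all, Etv5 was called at P5 in 3 of 30 alternatives, over which its adjusted p reached 0.19. At P11 Het libraries averaged 9.78 ± 0.834 CPM and WT libraries 9.69 ± 0.773 CPM (SD, n = 5 each), and Het over WT was 0.01 ± 0.11 on the log2 scale (SE; adjusted p = 0.98). Etv4 had 0.27 ± 0.16 at P11 and -0.01 ± 0.15 at P5 (SE; adjusted p = 0.609 and 0.998).

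**Figure D5:**
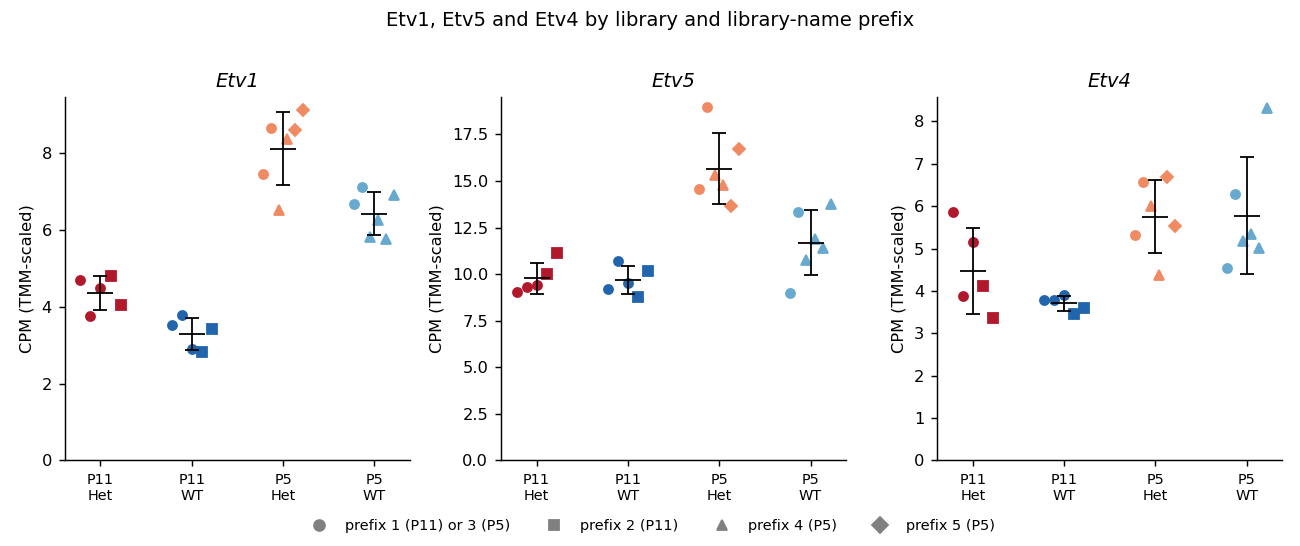
Level of Etv1, Etv5 and Etv4 in each library (vertical axis, TMM-scaled CPM, each panel with its own scale), by group from left to right P11 Het, P11 WT, P5 Het and P5 WT, with the library-name prefix as the symbol and the mean and SD as black bars. For Etv1, 4 of 5 Het libraries at P11 and 5 of 6 at P5 lie above all WT libraries of their age; for Etv5 the genotypes stand apart at P5 except for 1 library pair and overlap at P11.

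Since Etv1 and Etv5 had the largest log2 fold changes by genotype among the feedback and target genes, at P11 and at P5, the 250 bases before a RefSeq start of each that is free of GENCODE M21 exons are shown (GRCm38.p6, 5′ to 3′ on the gene's strand). They are chr12:38779832-38780081 on the plus strand for Etv1 and chr16:22438369-22438618 on the minus strand for Etv5.
Etv1: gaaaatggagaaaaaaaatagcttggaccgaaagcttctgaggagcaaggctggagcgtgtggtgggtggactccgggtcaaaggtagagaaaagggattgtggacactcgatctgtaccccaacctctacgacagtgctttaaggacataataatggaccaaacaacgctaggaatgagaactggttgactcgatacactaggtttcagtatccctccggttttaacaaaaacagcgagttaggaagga
Etv5: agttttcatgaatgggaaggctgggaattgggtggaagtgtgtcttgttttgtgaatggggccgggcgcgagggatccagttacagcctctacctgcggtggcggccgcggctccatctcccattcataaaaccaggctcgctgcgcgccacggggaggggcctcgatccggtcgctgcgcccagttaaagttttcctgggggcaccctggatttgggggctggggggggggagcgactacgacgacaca
Neither window holds CCGGAA or TTCCGG. The Etv1 window has 46.4% G and C with 9 CpG and the Etv5 window 62.0% with 18 CpG.

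At P11 the other members with an unadjusted p under 0.05 were Fgf10 and Spry4, both higher in Het. Fgf10 averaged 0.935 ± 0.505 CPM in P11 Het and 0.519 ± 0.228 CPM in P11 WT molars (SD, n = 5 each), and Het over WT was 0.85 ± 0.37 on the log2 scale (SE; adjusted p = 0.466), with overlap. Spry4 averaged 28.2 ± 5.17 CPM in P11 Het and 21.7 ± 3.31 CPM in P11 WT molars (SD, n = 5 each), and Het over WT was 0.38 ± 0.17 on the log2 scale (SE; adjusted p = 0.474), and Het 5, at 37.0 CPM, was the highest of all libraries.

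Genes that deliver FGFs or carry the signal onward were followed as 4 lists, none of whose members was called by genotype at P11, at P5 or over both ages. With age, their counts stand against the 24.4% of all genes called higher and 23.4% called lower in Het, and 24.8% higher and 24.7% lower in WT molars. Of 10 tested co-receptors and FGF-binding proteins, 2 rose and 3 fell with age in Het and 1 rose and 3 fell in WT molars. The falling genes were Cdh2, N-cadherin, which binds Fgfr1 (log2 fold change -1.33 ± 0.07 in Het and -1.40 ± 0.07 in WT, SE; adjusted p = 1.56e-13 and 4.94e-14), Il17rd, an inhibitor of the receptor complex also called Sef (-1.90 ± 0.18 in Het and -1.55 ± 0.17 in WT), and Flrt2 (-0.63 ± 0.07 in Het and -0.67 ± 0.07 in WT). Ncam1 rose in Het molars (log2 fold change 0.49 ± 0.09, SE, adjusted p = 0.000144), a call held in all 29 alternatives, and was not called in WT molars. Fgfbp1, a carrier that releases FGFs from matrix and is known from keratinocytes, rose in both genotypes. It was at 0.0697, 3.12, 0.865, 0.473 and 2.16 CPM in P11 Het and at 0.0516, 0.0255, 0.295, 9.84 and 3.63 CPM in P11 WT libraries, and at most 0.518 CPM at P5. Its 3 highest values were those of P11 WT 4, P11 WT 5 and P11 Het 2, the libraries with the highest oral keratinocyte markers; 1 of the 11 marker genes was at 0 in P11 Het 2. The adjusted p of Fgfbp1 was 0.0148 in Het and 0.000347 in WT molars. It became 0.0518 in Het without P11 Het 2 and 0.0823 in WT without the 5 marker-rich libraries. Those markers ranged from 2.14 to 5.51 in P11 Het, 1.40 to 6.56 in P11 WT, -0.80 to 0.94 in P5 Het and -0.84 to -0.25 in P5 WT libraries (mean log2 CPM), and beyond these values their part was not tested.

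Heparan sulfate proteoglycans and the enzymes that make or trim them, which hold FGFs at their receptors, went both ways. Of 24 genes, 7 rose and 11 fell in Het and 7 rose and 9 fell in WT molars. The syndecans Sdc1 (log2 fold change 1.12 ± 0.10 in Het and 1.09 ± 0.10 in WT, SE) and Sdc4 (1.03 ± 0.10 in Het and 1.21 ± 0.10 in WT) rose. The glypican Gpc3 (-0.99 ± 0.07 in Het and -0.998 ± 0.07 in WT), the basement membrane proteoglycan Hspg2 (-0.96 ± 0.09 in Het and -0.82 ± 0.09 in WT) and the heparan sulfate-cleaving enzyme Hpse (-1.43 ± 0.12 in Het and -1.39 ± 0.12 in WT) fell.

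Of 25 receptor adaptors and RAS-ERK components, 2 rose and 9 fell in Het and 4 rose and 11 fell in WT molars, with a median log2 fold change of -0.21 in Het and -0.20 in WT over the list, against -0.01 over all genes in each. The adaptors Shc1 (-0.75 ± 0.10 in Het and -0.56 ± 0.10 in WT, SE) and Grb2 (-0.40 ± 0.08 in each) and the receptor-bound phospholipase Plcg1 (-0.50 ± 0.07 in Het and -0.47 ± 0.07 in WT) fell in both genotypes. Of 22 other ERK-induced genes and ERK phosphatases, 14 rose and 5 fell in each genotype, with a median log2 fold change of 0.83 in Het and 0.75 in WT molars. The AP-1 subunit Fosl2 (1.82 ± 0.09 in Het and 2.21 ± 0.09 in WT, SE), the phosphatase Dusp1 (1.46 ± 0.13 in Het and 1.91 ± 0.13 in WT) and the EGF receptor inhibitor Errfi1 (1.67 ± 0.12 in Het and 1.65 ± 0.12 in WT) rose, and the ubiquitin ligase adaptor Spsb1 (-0.73 ± 0.07 in Het and -0.81 ± 0.07 in WT) fell. Genes of this list respond to many stimuli besides FGFs. Het over WT, 20 of the 22 had a log2 fold change below 0 at P11 and 2 above. At P5 15 were below 0 and 7 above. The median over the list was -0.09 at P11 and -0.07 at P5, with no gene called, against -0.0076 and -0.00419 over all genes. Also below 0 at P11 were 18 of 24 heparan sulfate genes, 15 of 25 adaptors and RAS-ERK components, and 5 of 10 co-receptors. At P5 these counts were 9, 11 and 1. Genes of a list were measured in the same libraries and do not count as replicates, and their signs were not tested.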

How the data were processed

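Bulk RNA-seq libraries of first molars were sequenced unstranded, per the labels' protocols, and the submitters' processing notes name STAR 2.7.3a and GRCm38; the counter was not given in the sources used here, nor was the annotation. The raw table deposited by the authors holds counts per gene; 18 entries that are not mouse genes were left out. The authors' normalised table (unit: signal) holds counts scaled by TMM as CPM and was used for gene names only. Columns were matched to samples by library name.

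Tests used the raw counts: edgeR 4.0.16 in R 4.3.3, quasi-likelihood, two-sided, TMM factors, filterByExpr (minimum count 10, minimum total 15), 4 age-by-genotype groups, 22 libraries, 18 residual degrees of freedom. Adjusted p-values are Benjamini-Hochberg over 21510 genes. The SE is approximate, from the log2 fold change and the F statistic (their ratio after taking the root of F). Scripts were tested on simulated data. Alternatives included DESeq2 1.42.0, other scaling, no filter, blocks and omitted libraries.

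The members, gene lists and tests were chosen with earlier results of these data known. Per-library values are given for the 12 members with the smallest p by age, those with a genotype call or p under 0.01, and a list known from tooth development; others by range. From each pathway list, examples come from the 6 smallest p-values among called genes. Coordinates come from GENCODE M21 and promoters from RefSeq GRCm38.p6. Nextera libraries carry no molecular identifiers, so floors cover counting error only. Some gene families share reads between similar members, which was not assessed.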

Additional observations from a re-analysis of the deposited data

Results flagged for a closer look

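Of 123 groups of libraries checked, 8 held a library whose gap to its nearest neighbour passed Dixon's 95% limit. Chance flags about 1 in 20 groups. Among ligands, Fgf1 was low in P11 Het 1 (34.7 CPM, the others 40.7 to 42.8) and high in P5 WT 6 (50.8 CPM, the others 42.6 to 45.3). Fgf7 was high in P11 WT 4 (3.77 CPM, the others 2.95 to 3.17). P11 Het 2, a library with raised oral keratinocyte and muscle markers, was high in Fgf3 (0.676 CPM, the others 0.0464 to 0.209) and in Fgf22 (1.35 CPM, the others 0.628 to 0.817). Fgf11 was high in P11 Het 1 (4.65 CPM, the others 3.17 to 3.43). The receptor Fgfr1 was high in P5 Het 2 (674 CPM, the others 523 to 558), and the inhibitor Spred1 in P5 WT 2 (52.7 CPM, the others 43.6 to 46.8).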

How the results depend on the processing

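No age call, nor the genotype effects of Etv1 at P11, at P5 and over both ages and of Etv5 at P5, reversed direction under the alternatives run. The uncalled log2 fold change of Etv5 at P11 ran from -0.04 to 0.05. In Het molars 14 of 16 age calls held in all 29 alternatives, and in WT molars 14 of 23. Without the 5 marker-rich libraries, the members lower with age in WT numbered 5 in place of 10. At P5 the members higher in Het numbered 1, Etv5, in place of 0 with DESeq2 and with the replicate block (adjusted p = 0.0285). Over both ages the count of members higher was 0 in place of 1 with RLE size factors, without a filter on low counts, with a block for library-name prefix, with the replicate block, without the library with conflicting age labels and without the 5 libraries named above. The adjusted p of Etv1 there was 0.0503, 0.12, 0.0885, 0.0758, 0.0874 and 0.272; the cause was not tested. Leaving out each library in turn gave 0 to 1 members higher and 0 to 0 lower at P5, 0 to 0 in either direction at P11 and for the interaction, and 0 to 1 higher and 0 to 0 lower over both ages. With age it gave 7 to 9 higher and 8 to 11 lower in Het, and 10 to 14 higher and 7 to 10 lower in WT molars. The correlations of same-numbered libraries' deviations from their group means were -0.13 to 0.11 at P11, 0.04 to 0.21 at P5 (3 of 6 over 0.1), -0.09 to -0.01 between ages in Het and -0.03 to 0.08 in WT molars, and since not every pair passed 0.1 and no label ties the numbers together, the replicate numbers were not taken as pairs. With the replicate block the WT age calls of Fgf1, Fgf9, Fgf12, Fgf13, Fgfr2, Dusp6 and Etv5 and the Het age call of Fgf13 were not made (adjusted p = 0.0614 to 0.138). Depth limits the rare ligands, for which 3 counts in a library corresponded to 0.0654 to 0.0893 CPM.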

Other observations

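Exons of 10 members overlap another annotated gene with counts in these unstranded libraries. Fgf20, whose 24 counts over 22 libraries were too few to test, lies across Micu3 on the opposite strand, a mitochondrial calcium uptake gene with a mean of 139 CPM. The annotated span of Fgfr2 (chromosome 7, 130162451 to 133123350) includes exons that overlap Ctbp2.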
